A study of Mus musculus with 12 samples.

Results

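Tgfbi and Postn are the 2 genes described here, of 51707 genes measured, and they were chosen by name as secreted matrix proteins built on fasciclin domains. The choice was made with earlier results of these data known. Tgfbi encodes the mouse form of BIGH3, the protein that was added to the cells. RNA was sequenced from 12 libraries of MLO-Y4, a mouse cell line with osteocyte-like character, grown on plates coated with rat tail type I collagen at 0.15 mg/mL. Cells were undifferentiated or differentiated, and in each state 3 libraries came from control cells and 3 from cells given recombinant human BIGH3, which makes 4 groups. The α-MEM medium for differentiation held β-glycerophosphate (4 mM), fetal bovine serum (10%) and ascorbic acid (50 µg/mL). The labels give no such medium for undifferentiated cells, so differentiation and a direct effect of the medium cannot be told apart. The sources used here do not give the dose and duration of BIGH3, what control cells received, or whether replicate libraries stem from separate cultures. Every p-value therefore measures only the spread between these libraries, which may be technical. All the cells are of 1 line, so no result here covers a second line or primary osteocytes.

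Fasciclin domains are a fold shared by a small family of extracellular adhesion proteins, and TGFBI protein and periostin each carry a run of them behind a cysteine-rich N-terminal domain. Both proteins bind collagens and fibronectin and are bound by integrins, and both genes are known targets of transforming growth factor beta (TGF-beta), from which TGFBI takes its name. In bone, periostin is known from the periosteum and from sites of load and repair. The Postn transcript is known to be spliced differently near its 3′ end, where whole exons that encode parts of the C-terminal region are kept or left out.

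Tgfbi (ENSMUSG00000035493.10) lies on the plus strand of chromosome 13 at 56609523 to 56639562, and Postn (ENSMUSG00000027750.16) on the plus strand of chromosome 3 at 54361109 to 54391037, in the GRCm38 build with the GENCODE M21 annotation. The annotation lists 5 transcripts of Tgfbi and 9 of Postn, and all 14 were matched in the deposited tables. The 4 long coding transcripts of Postn differ in 2 cassette exons, numbered here in Postn-202, which holds 23 exons and both cassettes. Exon 17 is 81 bases long (chr3:54380412-54380492) and exon 21 is 84 bases long (chr3:54385671-54385754). Both are coding and add a whole number of codons, 27 and 28, so leaving either out keeps the reading frame. Postn-203 holds exon 17 alone, Postn-201 holds exon 21 alone and Postn-204 holds neither. The sequences are shown because the results below turn on whether these letters were in the message. The cassette is in capitals, with the 15 exonic bases on either side in lower case, in the sense direction 5′ to 3′ as in the GENCODE M21 transcripts.
Postn exon 17: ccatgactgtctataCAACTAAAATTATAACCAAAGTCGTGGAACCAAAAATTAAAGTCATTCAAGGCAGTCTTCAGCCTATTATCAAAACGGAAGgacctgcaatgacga
Postn exon 21: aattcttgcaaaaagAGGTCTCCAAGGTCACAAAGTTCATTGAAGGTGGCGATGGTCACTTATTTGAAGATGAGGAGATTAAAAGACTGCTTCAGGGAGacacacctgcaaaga
In Postn-204 both cassettes are missing, and the exons around them are joined directly. The 15 bases after each junction are in capitals.
Postn exon 16 to exon 18: ccatgactgtctataGACCTGCAATGACGA
Postn exon 20 to exon 22: aattcttgcaaaaagACACACCTGCAAAGA

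**Figure D1:**
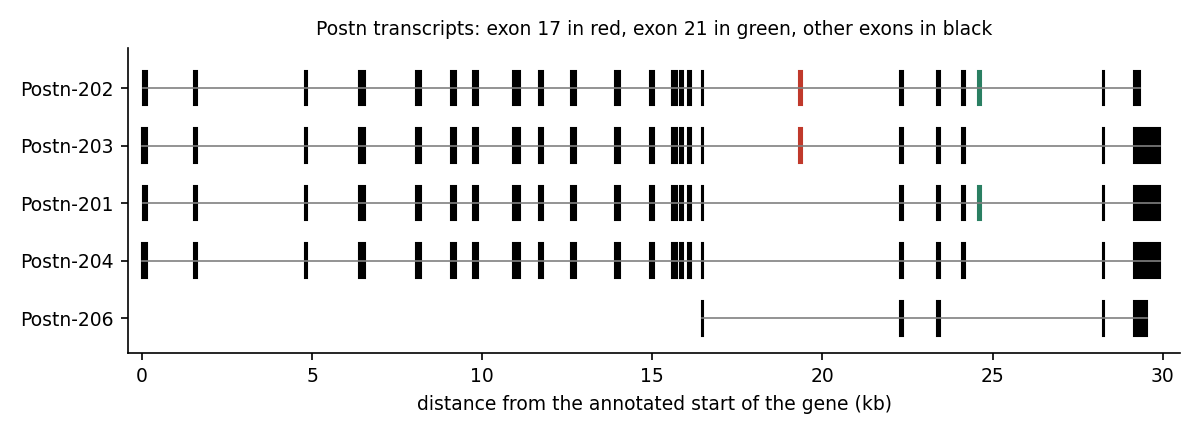
Exons of the 4 long coding transcripts of Postn and of the short Postn-206, drawn to scale along the gene in kb from its annotated start (horizontal axis), with exon 17 in red, exon 21 in green and introns as lines. The long transcripts share every other internal exon, while the annotated starts of the first exon and ends of the last differ among them, and Postn-202 has the shortest last exon of the 4.

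Both messages were abundant in every library, and Postn far more so. In TPM, a level scaled to library sum and corrected for transcript length, Tgfbi averaged 18.9 ± 0.72 (SD, n = 3, as for all SDs here) in undifferentiated control and 18.3 ± 1.2 in undifferentiated BIGH3 cells. It averaged 37.8 ± 1.4 TPM in differentiated control and 65.4 ± 2.2 in differentiated BIGH3 cells. Postn averaged 399.7 ± 19 TPM, 384 ± 9.8, 968 ± 24 and 1171 ± 26 in the same order of groups. Genes were ranked by TPM among those with a value above 0 in any library, so a library's ranking includes genes at 0 in it. Postn stood at or above 98.9% to 99.7% of these genes in every library. Tgfbi moved from 77.6% to 78.9% in undifferentiated libraries to 88.9% to 89.2% in differentiated control and 93.1% to 93.6% in differentiated BIGH3 libraries. For each gene the order of the groups was differentiated BIGH3, differentiated control and then the undifferentiated groups, which overlapped each other.

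The depth was 19014492 to 27612155 estimated reads per library, and Tgfbi rested on 705 to 3272 reads per library and Postn on at least 15684. The osteocyte label was checked against 7 markers. Dmp1, Phex, Pdpn and Gja1 were detected in every group, Fgf23 was listed at 0 in all of them, Sost was listed at 0 outside differentiated control, and Mepe averaged at most 0.63 CPM (counts scaled to library size). Transcripts of 8 liver genes summed to 97.6 CPM in undifferentiated control 2, 45.2 in differentiated BIGH3 3, 38.3 in differentiated control 2 and 18.8 in undifferentiated BIGH3 1, against 1.95 to 5.13 in the others, and results were refitted without these libraries. Macrophage markers summed to at most 1.5 CPM, endothelial markers to at most 3.46 CPM and epithelial markers to at most 12.6 CPM in any library. The names of the deposited tables begin with MC3, which is not the line in the labels, and which line was used was not tested.

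Differentiation raised both genes, and BIGH3 raised both in differentiated cells, while neither was called for BIGH3 in undifferentiated cells. In undifferentiated cells Tgfbi was at 36.3, 34.4 and 33.2 CPM in the controls and at 35.9, 33.0 and 35.3 CPM with BIGH3. It was at 83.5, 83.3 and 84.6 CPM in differentiated controls and at 149, 148 and 134 CPM in differentiated BIGH3 libraries. The undifferentiated groups overlapped, and every differentiated BIGH3 library lay above every differentiated control. In bulk RNA such a level cannot tell apart more cells that make the message from more message per cell. Postn was at 735, 752 and 771 CPM in undifferentiated controls and at 756, 782 and 762 CPM with BIGH3. It reached 2245, 2253 and 2416 CPM in differentiated controls and 2657, 2649 and 2603 CPM in differentiated BIGH3 libraries. Here too the undifferentiated groups overlapped, and the differentiated groups did not.

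Markers of several cell types differed between the same groups. Between differentiated control and differentiated BIGH3 libraries, summed levels went from 211 to 219 CPM to 122 to 130 CPM for 4 cartilage markers and from 16.1 to 17.9 CPM to 4.14 to 6.06 CPM for 3 muscle markers. For 6 osteoblast markers they went from 2077 to 2446 CPM to 1674 to 1930.0 CPM, and for 7 osteocyte markers from 423 to 445 CPM to 587 to 614 CPM. In differentiated cells with BIGH3 all 3 tested cartilage, all 3 muscle and all 6 osteoblast markers fell. Of the 4 tested osteocyte markers, 3 rose and 1 fell. Over all genes in that comparison, 22.6% rose and 22.9% fell. In undifferentiated cells none of these markers was called for BIGH3, in a comparison in which 0.0204% of all genes were called. The part of cell makeup in the results for Tgfbi and Postn was not tested.

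**Figure D2:**
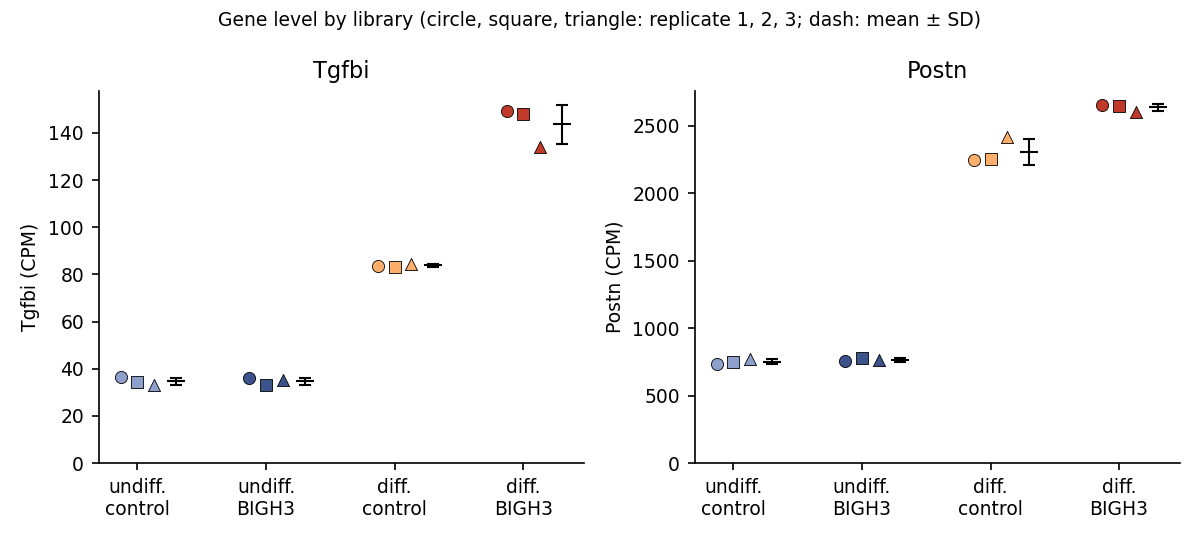
Level of Tgfbi (left) and Postn (right) in CPM on linear axes from 0, with 1 symbol per library, its shape giving the replicate number, and a dash with a bar for the mean ± SD of 3 libraries. Both genes were higher in all 6 differentiated than in all 6 undifferentiated libraries, and the step from differentiated control to differentiated BIGH3 was 1.72-fold for Tgfbi and 1.14-fold for Postn.

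The differences were tested with edgeR's quasi-likelihood test over 14711 genes, with Benjamini-Hochberg adjustment, and the call threshold was an adjusted p of 0.05. In control cells differentiation raised Tgfbi by a log2 fold change of 1.28 ± 0.06 (SE; adjusted p = 6.64e-14) and Postn by 1.61 ± 0.04 (adjusted p = 2.21e-17), in a comparison in which 57.7% of all genes were called. In BIGH3 treated cells the rise was 2.05 ± 0.06 for Tgfbi (adjusted p = 2.13e-17) and 1.78 ± 0.04 for Postn (adjusted p = 3.20e-18), where 56.6% of genes were called. So differentiation took Tgfbi up 2.42-fold without BIGH3 and 4.14-fold with it, and Postn up 3.06-fold and 3.44-fold. On the TPM scale, fitted with limma on log2(TPM + 0.5), these rises were smaller and all were called: 0.98 and 1.81 for Tgfbi, and 1.28 and 1.61 for Postn.

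In undifferentiated cells neither gene was called for BIGH3. The log2 fold change was 0.01 ± 0.06 for Tgfbi and 0.03 ± 0.04 for Postn, both with an adjusted p of 1.00 from edgeR, in a comparison in which 0.0204% of all genes were called. In differentiated cells BIGH3 raised Tgfbi by 0.78 ± 0.05 (edgeR adjusted p = 9.05e-11) and Postn by 0.19 ± 0.04 (edgeR adjusted p = 7.17e-04). Since 45.5% of genes were called there, the calls alone do not set either gene apart. The BIGH3 effect on Tgfbi was larger in differentiated than in undifferentiated cells by 0.77 ± 0.08 (edgeR interaction, adjusted p = 1.09e-07), in a test that called 32.2% of genes. For Postn that difference was 0.17 ± 0.06 (adjusted p = 0.0343), and the call was lost without the 3 libraries richest in liver transcripts (0.15, adjusted p = 0.151). It was also lost with no filter on low counts (0.15, adjusted p = 0.204) and when any of 8 single libraries was left out: undifferentiated control 2 or 3, undifferentiated BIGH3 1 or 3, differentiated control 1 or 2, or differentiated BIGH3 1 or 2. Over all 12 such omissions the adjusted p ran from 0.0251 to 0.115.

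Set against each other within a library, the level of Postn per length was many times that of Tgfbi. The ratio of their TPM was 19.5, 20.98 and 23.1 in undifferentiated controls and 20.4, 22.3 and 20.7 in undifferentiated BIGH3 libraries. It was 25.6, 24.9 and 26.3 in differentiated controls and 17.5, 17.4 and 18.8 in differentiated BIGH3 libraries. The differentiated control libraries held the highest ratios and the differentiated BIGH3 libraries the lowest, with no overlap between them or with the undifferentiated libraries. With treatment as stratum, the ratio of Postn to Tgfbi differed between the states by 0.02 on the log2 scale (exact two-sided permutation test, 400 arrangements, p = 0.825, adjusted p = 1.0 over the 5 ratio tests). That mean joins opposite differences, 0.28 in control and −0.24 in BIGH3 cells, each with an exact p of 0.1 (adjusted 0.167), the smallest that 3 libraries against 3 can give. Between treatments the differences in the log2 ratio were −0.52 in differentiated cells (exact p = 0.1, adjusted 0.167) and −0.0035 in undifferentiated cells (exact p = 1.0).

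Nearly all of the Tgfbi message was 1 transcript. Tgfbi-201, which codes for the protein with 17 exons and 2714 bases, held 98.3% to 100% of the Tgfbi reads of each library. Tgfbi-204, annotated as a target of nonsense-mediated decay, held 0 to 1.73%, or 93.9 reads over the 12 libraries. Tgfbi-202 and Tgfbi-205, annotated as retaining introns, had 7.23 and 3.48 reads in all, and Tgfbi-203 had none, which allows up to 3 reads in a library. Usage of Tgfbi transcripts was not called in any comparison (edgeR diffSpliceDGE, a test of whether transcripts of a gene change by different amounts; adjusted p = 1.00, 0.302, 0.732, 0.986 and 0.842 in the order BIGH3 in undifferentiated cells, BIGH3 in differentiated cells, differentiation in control cells, differentiation in BIGH3 cells and interaction). The rise of Tgfbi was thus a rise of Tgfbi-201, from 34.5 ± 1.6 CPM in undifferentiated control to 143 ± 8.3 CPM in differentiated BIGH3 cells.

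Postn, in contrast, changed its makeup. The 4 long coding transcripts held 92.8% to 97.3% of its reads in every library, and among them the form without either cassette exon went from the least used to the most used. Postn-204 took 6.60%, 7.05% and 6.19% of Postn reads in undifferentiated controls and 5.38%, 8.39% and 6.15% in undifferentiated BIGH3 libraries. It took 29.6%, 31.4% and 29.1% in differentiated controls and 66.5%, 67.6% and 63.4% in differentiated BIGH3 libraries. The undifferentiated groups overlapped, all differentiated controls lay above them, and all differentiated BIGH3 libraries lay above the controls.

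The forms that keep a cassette gave way in different steps. Postn-202, with both exons, held 11.5%, 11.7% and 14.3% of reads in undifferentiated controls and 11.3%, 9.85% and 9.45% in undifferentiated BIGH3 libraries. It held 6.89%, 6.23% and 5.80% in differentiated controls and 0.75%, 0.63% and 1.00% in differentiated BIGH3 libraries. Postn-203, with exon 17 alone, went from 29.5% ± 2.6 in undifferentiated control and 32.98% ± 3.2 in undifferentiated BIGH3 to 20.2% ± 1.4 in differentiated control and 9.47% ± 0.70 in differentiated BIGH3 cells. Postn-201, with exon 21 alone, was the largest form in undifferentiated control (44.8% ± 2.3), undifferentiated BIGH3 (43.7% ± 4.1) and differentiated control cells (40.4% ± 1.2), and stood at 19.4% ± 1.4 in differentiated BIGH3 cells. The small forms held the rest. The 4 transcripts that retain introns went from 6.37% ± 0.92 of reads in undifferentiated control to 2.61% ± 0.16 in differentiated control and 3.25% ± 0.33 in differentiated BIGH3 cells. The short coding Postn-206 also lacks both cassette exons and is not counted among the long transcripts. Its mean share went from 0.29% ± 0.30 of reads in undifferentiated control to 0.44% ± 0.11 in differentiated control and 1.23% ± 0.14 in differentiated BIGH3 cells. Per length it weighed more, at 1.74% ± 1.8 and 7.71% ± 0.82 of Postn TPM in undifferentiated control and differentiated BIGH3 cells, and its relative usage was not called in any comparison.

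**Figure D3:**
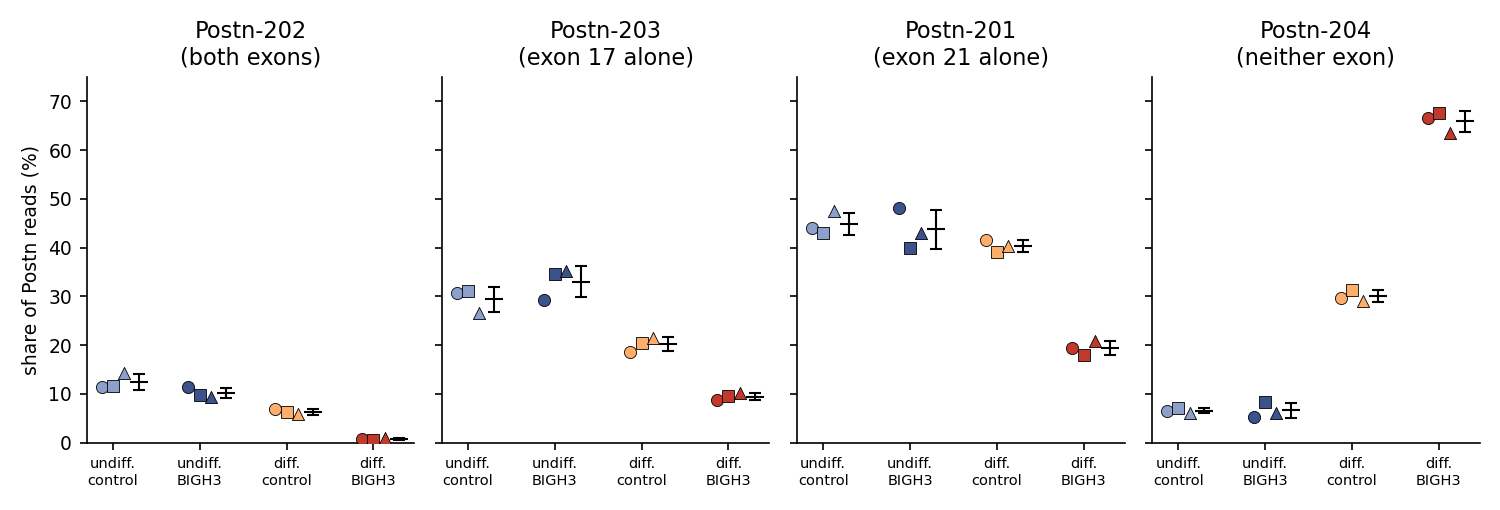
Share of the estimated Postn reads of a library (percent, linear axes from 0) held by each of the 4 long coding transcripts, with 1 symbol per library and the mean ± SD of 3 libraries beside it. Postn-204, which has neither cassette exon, averaged 6.61%, 6.64%, 30.0% and 65.9% in the groups from left to right, while Postn-202, which has both, averaged 12.5%, 10.2%, 6.31% and 0.79%.

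At the level of the whole gene, usage of Postn transcripts differed in the differentiated cells with BIGH3 against control (edgeR diffSpliceDGE, adjusted p = 3.93e-22), where 9.17% of the 9175 genes with several tested transcripts were called. It also differed with differentiation in control cells (adjusted p = 2.92e-18, 14.1% of genes called) and in BIGH3 cells (adjusted p = 1.47e-34, 9.49% called), and in the interaction (adjusted p = 3.89e-14, 4.57% called). In undifferentiated cells it was not called for BIGH3 (adjusted p = 1.00, 0.556% called). These calls and the absence of one were the same under all 16 alternatives tried for each comparison. The division of reads among transcripts is the quantifier's estimate, and its uncertainty is not part of these p-values.

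Single transcripts were tested with diffSpliceDGE relative to the change of the gene as a whole, on a log2 scale over 34748 transcripts. With BIGH3 in differentiated cells, relative usage of Postn-204 rose by 1.13 (diffSpliceDGE adjusted p = 1.23e-06) in a test that called 0.924% of transcripts. Relative usage of Postn-202 fell by 2.99 (adjusted p = 1.56e-19), of Postn-203 by 1.10 (adjusted p = 7.28e-06) and of Postn-201 by 1.06 (adjusted p = 8.23e-06). The falls of Postn-203 and Postn-201 were not called with limma's diffSplice on log2(TPM + 0.5), where they were −0.88 (adjusted p = 0.374) and −0.84 (adjusted p = 0.404), whereas those of Postn-202 and the rise of Postn-204 were. That diffSplice fit takes as reference the gene's other tested transcripts, each with equal weight whatever its reads. Its values and calls are therefore a different measure from those of diffSpliceDGE, here and below.

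With differentiation in control cells, relative usage of Postn-204 rose by 2.18 (adjusted p = 2.44e-17, with 0.99% of transcripts called) and that of Postn-202 fell by 0.99 (adjusted p = 8.19e-04). The latter call was lost without the 3 libraries richest in liver transcripts (−1.03, adjusted p = 0.0529) and with limma's diffSplice (−0.50, adjusted p = 0.657). Postn-207, a retained-intron form, fell by 1.46 relative to the gene (adjusted p = 3.18e-04). Postn-203 (−0.54, adjusted p = 0.0963) and Postn-201 (−0.15, adjusted p = 1.00) did not pass. In BIGH3 cells differentiation raised the relative usage of Postn-204 by 3.31 (adjusted p = 2.50e-26, 1.1% of transcripts called), and that of Postn-202, Postn-203 and Postn-201 fell by 3.69, 1.80 and 1.17, with adjusted p of 3.63e-24, 2.97e-13 and 3.27e-07. The retained-intron forms Postn-209 and Postn-207 fell by 7.37 (adjusted p = 2.13e-05) and 0.97 (adjusted p = 0.0381), and Postn-209 had 0, 8.01 and 0 reads in the differentiated BIGH3 libraries, so the size of its fall depends on the prior count. The calls for Postn-203 (−0.95, adjusted p = 0.273) and Postn-201 (−0.24, adjusted p = 0.875) were lost with limma's diffSplice.

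The effect of BIGH3 on relative usage was larger in differentiated than in undifferentiated cells for Postn-202 by −2.70 (adjusted p = 2.29e-11, in a test that called 0.613% of transcripts). For Postn-204 the difference was 1.12 (adjusted p = 0.00221), for Postn-203 −1.26 (adjusted p = 4.98e-04) and for Postn-201 −1.02 (adjusted p = 0.00737). Without the 3 libraries richest in liver transcripts the adjusted p became 0.0638 for Postn-204 and 0.104 for Postn-201. With limma's diffSplice and its other reference it became 0.189 for Postn-204, 0.675 for Postn-203 and 0.813 for Postn-201, so among single transcripts the interaction held in each of these refits for Postn-202.

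In level, and not in share, Postn-204 averaged 49.8 ± 2.8 CPM in undifferentiated control, 51.0 ± 13 in undifferentiated BIGH3, 692 ± 23 in differentiated control and 1737 ± 75 in differentiated BIGH3 cells. All other Postn transcripts together averaged 703 ± 19, 715 ± 0.91, 1613 ± 88 and 899.7 ± 48 CPM in the same order. With differentiation in control cells both parts were therefore higher. With BIGH3 in differentiated cells Postn-204 was higher and the remainder, taken as a sum, lower, and the gene's total moved by 1.14-fold. At the transcript level Postn-204 rose by a log2 fold change of 1.26 ± 0.14 (edgeR adjusted p = 1.72e-04), in a test of 40063 transcripts that called 14.2%. Postn-201 fell by 0.93 ± 0.08 (adjusted p = 3.59e-05), Postn-203 by 0.97 ± 0.09 (adjusted p = 8.04e-05) and Postn-202 by 2.86 ± 0.17 (adjusted p = 2.77e-06). Postn-208, a retained-intron form at a low level, rose by 1.22 ± 0.27 (adjusted p = 0.0122). The estimates for Postn-205, Postn-206 and Postn-207 were positive and that for Postn-209 negative, and none of these was called.

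Read by exon, each cassette was held by a smaller share of the message in differentiated cells, and by a smaller share again with BIGH3. Of the reads of the 4 long transcripts, those assigned to transcripts with exon 17 made up 45.4%, 46.1% and 43.2% in undifferentiated controls and 43.2%, 47.8% and 47.5% with BIGH3. The share was 26.4%, 27.5% and 28.2% in differentiated controls and 9.93%, 10.7% and 11.6% in differentiated BIGH3 libraries. For exon 21 the shares were 59.8%, 58.8% and 65.4% in undifferentiated controls and 63.1%, 53.7% and 56.0% with BIGH3. They were 50.1%, 46.7% and 47.7% in differentiated controls and 21.2%, 19.4% and 22.9% in differentiated BIGH3 libraries. For either exon the 4 groups fell into 3 levels without overlap, since the undifferentiated groups shared a range. Exon 17 had the smaller share in every library. Neither exon was in 7.09% ± 0.52 of the long message in undifferentiated control and in 68.9% ± 2.2 in differentiated BIGH3 cells. These shares are a regrouping of the transcript estimates above and not a separate measurement of junction reads.

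**Figure D4:**
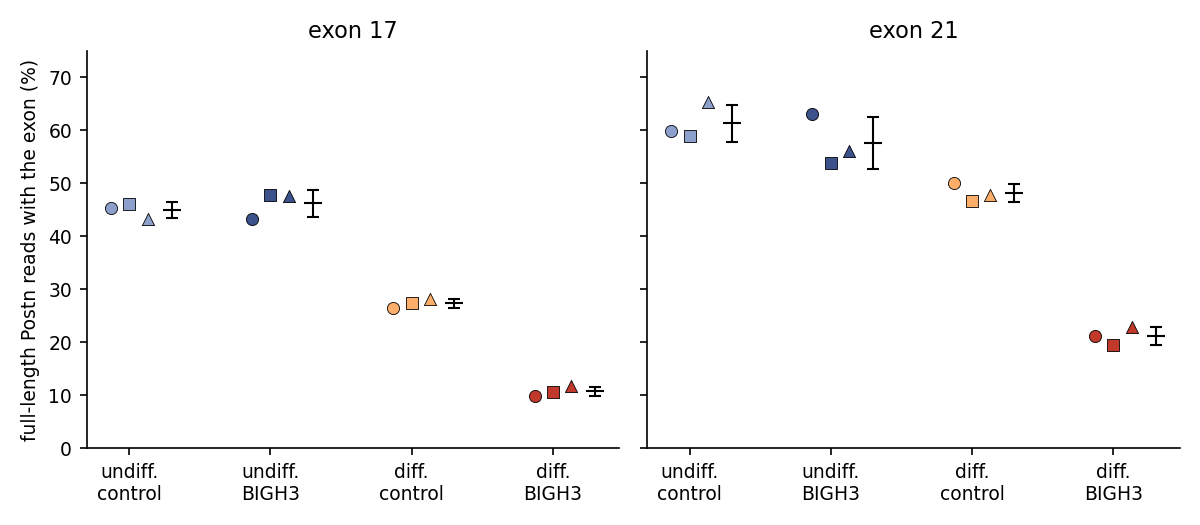
Share of the reads of the 4 long Postn transcripts assigned to transcripts that hold exon 17 (left) or exon 21 (right), in percent on linear axes from 0, with 1 symbol per library and the mean ± SD of 3 libraries. Exon 17 averaged 44.9%, 46.2%, 27.3% and 10.7%, and exon 21 averaged 61.3%, 57.6%, 48.2% and 21.1%, in the groups from left to right.

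The promoters were compared because both genes rose with differentiation. The 250 bases upstream of the RefSeq start (GRCm38.p6, plus strand) are given 5′ to 3′, with matches to 4 motifs in capitals. The motifs were TATAAA (the TATA box), CANNTG (the E-box, bound by Twist and Snail factors), CAGAC (a SMAD element) and TGANTCA (the AP-1 element), each on both strands. None of these overlaps another in the matches found.
Tgfbi promoter, chr13:56609336-56609585: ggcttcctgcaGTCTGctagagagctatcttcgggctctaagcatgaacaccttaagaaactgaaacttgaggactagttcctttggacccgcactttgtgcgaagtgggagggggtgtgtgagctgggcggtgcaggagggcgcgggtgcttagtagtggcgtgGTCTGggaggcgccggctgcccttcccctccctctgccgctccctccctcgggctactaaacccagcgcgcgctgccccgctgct
Postn promoter, chr3:54360857-54361106: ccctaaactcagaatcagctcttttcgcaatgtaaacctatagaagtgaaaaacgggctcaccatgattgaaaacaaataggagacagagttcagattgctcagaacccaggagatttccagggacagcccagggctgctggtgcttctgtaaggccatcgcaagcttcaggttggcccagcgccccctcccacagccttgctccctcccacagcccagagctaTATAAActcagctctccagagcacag
The Tgfbi window held 2 CAGAC matches, written as GTCTG on this strand, the nearer at 85 to 81 bases upstream of the start, and none of the other motifs. The Postn window held 1 TATAAA match at 26 to 21 bases upstream and none of the others. Of 32851 mouse promoters of this length, 42.2% held CAGAC, 12.4% TATAAA, 66.2% CANNTG and 6.75% TGANTCA. GC content was 62.4% for Tgfbi and 52.0% for Postn, beside a median of 52.4% over all promoters.

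The other fasciclin genes of the mouse, the scavenger receptors Stab1 and Stab2, were low. Stab1 averaged 0.43 ± 0.023, 0.48 ± 0.22, 0.89 ± 0.29 and 2.02 ± 0.23 CPM in the group order used above for TPM. It rose with differentiation in control cells (1.03 ± 0.40, edgeR adjusted p = 0.0319) and with BIGH3 in differentiated cells (1.19 ± 0.37, adjusted p = 0.0122). Stab2 averaged 4.63 ± 0.17, 4.33 ± 0.27, 9.95 ± 1.1 and 4.97 ± 0.87 CPM. It rose with differentiation in control cells (1.10 ± 0.14, adjusted p = 1.21e-06) and fell with BIGH3 in differentiated cells (−1.01 ± 0.14, adjusted p = 7.45e-06). All 4 family genes were thus called higher with differentiation in control cells, where 29.1% of all genes rose and 28.6% fell, and 3 of 4 with BIGH3 in differentiated cells, where 22.6% rose and 22.9% fell.

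TGF-beta signals through type II and type I receptors to SMAD proteins, after release of the ligand from a latent complex. Of 15 genes of that pathway, 6 rose and 7 fell with differentiation in control cells (median log2 fold change −0.10, beside −0.01 over all genes tested, of which 29.1% rose and 28.6% fell). With BIGH3 in differentiated cells 5 rose and 4 fell (median −0.03, beside −0.01, with 22.6% of all genes rising and 22.9% falling). None was called for BIGH3 in undifferentiated cells, where 0.0204% of all genes were. Among ligands, Tgfb1 rose with differentiation, from 15.99 ± 0.49 to 39.3 ± 2.1 CPM (1.29 ± 0.08, edgeR adjusted p = 1.05e-11), and stood at 40.3 ± 2.5 CPM in differentiated BIGH3 cells (0.04 ± 0.07 against control, adjusted p = 0.723). Tgfb3 rose with BIGH3 in differentiated cells, from 81.5 ± 1.1 to 104 ± 0.61 CPM. Ltbp1, which binds the latent ligand in the matrix, rose with differentiation (1.44 ± 0.05) and with BIGH3 in differentiated cells (0.31 ± 0.05).

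The receptors moved apart. Tgfbr1, the type I receptor, rose with differentiation (0.71 ± 0.04) and fell with BIGH3 in differentiated cells (−0.33 ± 0.04). Tgfbr3, the co-receptor betaglycan, went from 93.3 ± 2.3 to 253 ± 7.5 CPM with BIGH3 in differentiated cells (1.44 ± 0.05, edgeR adjusted p = 6.73e-16), and was at 100.1 ± 2.5 CPM in undifferentiated control. Smad3, which carries the signal to the nucleus, fell with differentiation (−0.43 ± 0.05) and rose with BIGH3 in differentiated cells (0.56 ± 0.05). Skil, a SMAD corepressor that the signal also induces, rose in both (1.25 ± 0.09 and 0.55 ± 0.09).

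Of 10 genes known as TGF-beta targets in other cells, 5 rose and 4 fell with differentiation in control cells (median 0.52), where 57.7% of all genes were called. With BIGH3 in differentiated cells 5 rose and 3 fell (median 0.14), where 45.5% were called. Ltbp2, a matrix protein related to the fibrillins, had the largest rise of the list with differentiation, from 2.46 ± 0.73 to 39.2 ± 2.3 CPM (4.02 ± 0.13, edgeR adjusted p = 3.03e-14), and rose further with BIGH3, to 95.9 ± 3.0 CPM. Ccn2, a matricellular growth factor, rose with differentiation (2.04 ± 0.10) and fell with BIGH3 in differentiated cells (−0.998 ± 0.09), from 40.2 ± 2.4 to 20.1 ± 1.0 CPM. Acta2, smooth muscle actin, fell with differentiation (−0.91 ± 0.05) and rose with BIGH3 in differentiated cells (0.31 ± 0.05). Cdh2, N-cadherin, fell in both (−0.90 ± 0.05 and −0.87 ± 0.06). The targets therefore did not share 1 direction, and Tgfbi and Postn rose in both comparisons as Ltbp2 and Skil did.

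Of 15 genes for matrix proteins and enzymes that periostin or TGFBI protein are known to bind or work with, 6 rose and 8 fell with differentiation in control cells (median −0.13), beside 29.1% and 28.6% of all genes. With BIGH3 in differentiated cells 3 rose and 8 fell (median −0.24, beside −0.01 over all genes, of which 22.6% rose and 22.9% fell). Dcn, the collagen-binding proteoglycan decorin, was the largest rise, from 336 ± 22 to 1019 ± 38 CPM (1.60 ± 0.05, edgeR adjusted p = 2.39e-15). Col2a1, a cartilage collagen, was the largest fall, from 49.7 ± 2.9 to 6.66 ± 0.96 CPM (−2.91 ± 0.12, edgeR adjusted p = 1.60e-10). It is also 1 of the 4 cartilage markers. Ccn3, a matricellular protein of the same family as Ccn2, went from 533 ± 4.6 to 163 ± 9.5 CPM (−1.71 ± 0.05). Col6a3, a chain of collagen VI, and Tnc, tenascin-C, fell by 1.14 ± 0.06 and 0.88 ± 0.05. Lox, the collagen crosslinking enzyme, rose with differentiation (0.93 ± 0.04) and was at 1071 ± 52 and 1080 ± 21 CPM in differentiated control and BIGH3 cells.

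Integrins are the receptors for both proteins. Of 11 subunits 10 were tested, since Itgam, at up to 0.28 CPM on average, did not pass the filter on low counts. With differentiation in control cells 3 rose and 3 fell (median 0.06), where 57.7% of all genes were called, and with BIGH3 in differentiated cells 1 rose and 3 fell (median −0.14), where 45.5% were. Itgav, the alpha v subunit that both proteins bind, fell by 0.17 ± 0.05 with BIGH3 in differentiated cells (edgeR adjusted p = 0.0164), from 322 ± 13 to 287 ± 23 CPM. Its partner Itgb5 rose by 0.29 ± 0.07 (adjusted p = 0.00323). Itga6, a laminin receptor subunit, fell with differentiation (−1.002 ± 0.08) and with BIGH3 (−0.64 ± 0.09). Itga1, a collagen receptor subunit, fell with BIGH3 in differentiated cells from 6.89 ± 0.29 to 3.33 ± 0.61 CPM (−1.05 ± 0.18). Itga3 fell with differentiation (−0.31 ± 0.05), and the leukocyte subunit Itgb2, at 1.15 to 4.54 CPM on average, rose with it (1.45 ± 0.25).

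Of 6 mesenchymal transcription factors tied to Postn, 1 rose and 2 fell with differentiation in control cells (median −0.12), where 57.7% of all genes were called. With BIGH3 in differentiated cells 3 rose and 2 fell (median 0.08), where 45.5% were called. Twist1, known to act on the Postn promoter, rose with differentiation by 0.28 ± 0.08 (edgeR adjusted p = 0.00771) and was at 24.3 ± 1.8 and 23.2 ± 1.3 CPM in differentiated control and BIGH3 cells. Prrx1, a limb mesenchyme factor, fell with differentiation (−0.25 ± 0.04) and rose with BIGH3 in differentiated cells (0.23 ± 0.04). Snai2 did likewise (−0.75 ± 0.07 and 0.34 ± 0.08). Twist2, at 0.91 to 2.07 CPM on average, rose with BIGH3 in differentiated cells (1.16 ± 0.33, adjusted p = 0.00689), and Snai1 fell there (−0.24 ± 0.08, adjusted p = 0.0225).

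**Figure D5:**
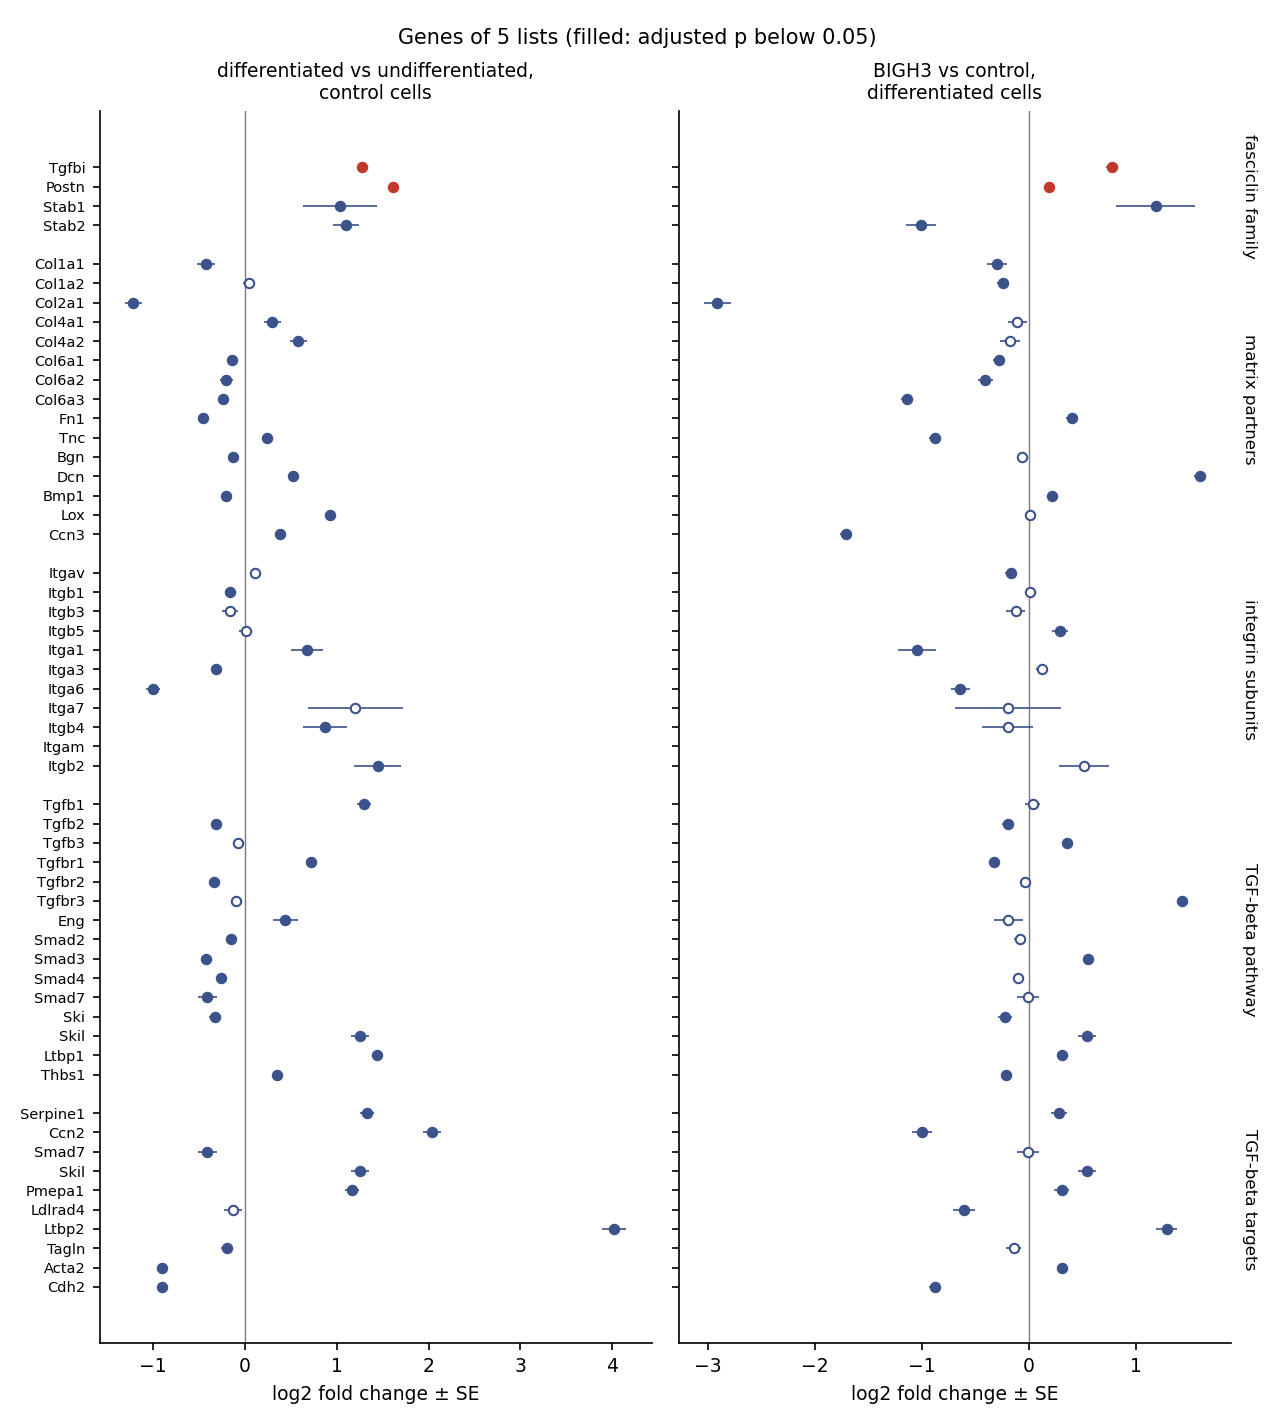
Log2 fold change ± SE of the genes of 5 lists, with differentiation in control cells (left) and with BIGH3 in differentiated cells (right), on linear axes. Tgfbi and Postn are in red, filled points have an edgeR adjusted p below 0.05, Itgam was not tested, and Skil and Smad7 belong to both TGF-beta lists. Both members lie to the right of 0 in both panels, at 1.28 and 1.61 on the left and 0.78 and 0.19 on the right.

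Likeness to other genes was described by Pearson's r of log2 CPM over the 12 libraries, among 10283 genes. These values mostly follow the 4 group means, which the libraries of a group share, and carry no test. The genes most like Tgfbi were F3 (r = 0.998), which encodes tissue factor, Ly6e (0.998), Pfkfb3 (0.998), Rgs3 (0.998) and Rarres2 (0.997). Those of the most opposite pattern were Ints8 (−0.997), Adamtsl3 (−0.997) and Sox9 (−0.996). F3 averaged 85.3, 88.6, 135 and 177 CPM in the usual order of groups, and Rarres2, which encodes chemerin, 5.83, 6.10, 56.3 and 159 CPM. The genes most like Postn were Selenop (0.999), a selenium carrier, Slc48a1 (0.998), Lum (0.998), which encodes the collagen-binding proteoglycan lumican, Rin2 (0.998) and Cd200 (0.998). The most opposite were Scd2 (−0.998), Paqr8 (−0.998) and Slc26a2 (−0.997). Lum averaged 2.96, 3.12, 259.9 and 322 CPM. Tgfbi and Postn had an r of 0.969 with each other. With each group's mean subtracted, the highest values were 0.933 for Tceanc2, 0.920 for Rgs19 and 0.917 for Svbp with Tgfbi, and 0.943 for Map4k3, 0.940 for Phldb2 and 0.917 for Map4k5 with Postn. These are the top values of a search over 10283 genes in only 12 libraries. Whether they exceed what unrelated genes would give was not tested.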

How the data were processed

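RNA libraries were made with a KAPA kit, per the labels' protocols. Per the submitters' processing notes the tools were Salmon, StringTie, cutadapt and FastQC, and the build was mm10. Their versions are not given in the sources used here. Deposited tables hold, per the file headers, each transcript's expected count (estimated reads), its TPM as computed by the authors, and its length and effective length. Of 147828 transcripts, 137063 (92.7%) matched GENCODE M21 without the version suffix, which was 1 higher here for all 14 transcripts of Tgfbi and Postn. The unmatched held 1.28% to 3.67% of reads and were left out. Counts were summed per gene, rounded, filtered by group (filterByExpr), TMM-scaled and modelled in edgeR 4.0.16 (R 4.3.3) over all 12 libraries, with 8 residual degrees of freedom and a biological coefficient of variation of 8.18%. Transcript usage used diffSpliceDGE. Tests were two-sided, with Benjamini-Hochberg adjustment over all features. The gene and usage tests were also run on simulated counts, drawn independently for each gene or transcript. That simulation does not cover the quantifier's division of reads among transcripts. The strand setting is not known, so antisense reads were not told apart. Named list genes were the up to 4 called members with the smallest adjusted p in each of 2 comparisons (differentiation in control cells, BIGH3 in differentiated cells). The like genes were the 5 highest and 3 lowest r, and the 3 highest with group means subtracted, at a mean log2 CPM of at least 2. Members and lists were chosen with earlier results of these data known. Alternatives were DESeq2 1.42.0, limma 3.58.1 on log2(TPM + 0.5) or log2(TPM + 0.05), library totals, no filter, length offsets, a replicate block, compared groups alone, no robust estimation, and omission of libraries.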

Additional observations from a re-analysis of the deposited data

Results flagged for a closer look

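Among Tgfbi, Postn and the list genes named with values, 23 had a BIGH3 effect that differed between differentiated and undifferentiated cells. The test was edgeR's interaction term (adjusted p below 0.05), which called 32.2% of all genes. List genes were named partly for a small adjusted p with BIGH3 in differentiated cells, so the count of 23 is no evidence about the lists. Genes named for likeness were not included. The log2 differences, differentiated minus undifferentiated, were 0.77 for Tgfbi and 0.17 for Postn, the latter losing its call under several alternatives. They were positive also for Ltbp1 (0.37), Ltbp2 (1.12), Dcn (1.57), Tgfb3 (0.30), Itgb5 (0.29), Prrx1 (0.16), Skil (0.54), Tgfbr3 (1.48), Smad3 (0.54) and Acta2 (0.28). They were negative for Tgfbr1 (−0.38), Ccn2 (−1.02), Col2a1 (−2.87), Cdh2 (−0.93), Itgav (−0.22), Itga6 (−0.65), Tnc (−0.88), Stab2 (−0.91), Ccn3 (−1.68), Itga1 (−0.99) and Col6a3 (−1.11). In relative usage (diffSpliceDGE, 0.613% of transcripts called) the differences were 1.12 for Postn-204, −1.26 for Postn-203, −1.02 for Postn-201 and −2.70 for Postn-202.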

How the results depend on the processing

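Tgfbi and Postn were called with the same direction under every alternative for both effects of differentiation and for BIGH3 in differentiated cells, and so was the interaction for Tgfbi. The interaction for Postn lost its call with no low-count filter (0.15, adjusted p = 0.204), without 3 libraries with liver transcripts (0.15, adjusted p = 0.151) and without 4 (0.15, adjusted p = 0.175), and ranged from 0.14 to 0.20 when single libraries were left out. The BIGH3 effect in undifferentiated cells, never called, changed sign for Tgfbi with library totals (−0.019), without the 3 libraries (−0.0016), without the 4 (−0.023) and with limma on either TPM scale (−0.051 and −0.052), and ranged from −0.025 to 0.040 with single libraries left out. For Postn it was −0.00027 with library totals and −0.0557 and −0.0558 with limma. The number of genes called there, 3, ran from 0 to 21 (8 with DESeq2), and from 0 to 3 with single libraries left out. Relative usage of Postn-204 there was −0.14 with limma's diffSplice and −0.20 to 0.14 with single libraries left out, and that of Postn-201 −0.11 to 0.022. Postn-201 usage with differentiation in control cells became 0.43 with diffSplice. Since diffSplice weighs the gene's other transcripts equally as reference, its values are on another measure, and their sign is not comparable with that of diffSpliceDGE. The log2 ratio of Tgfbi to Postn between states, −0.021, ranged from −0.052 to 0.0079 with single libraries left out, positive without undifferentiated control 1. As a share of TPM, Postn-204 held 6.01%, 28.3% and 59.0% in undifferentiated control, differentiated control and differentiated BIGH3 cells. The causes were not tested.

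Replicate numbers did not pair the libraries: same-numbered deviations correlated at −0.22 to 0.35, and 3 of 12 libraries correlated best with their own number. With the replicate number as a block the differentiated BIGH3 effect was 0.78 for Tgfbi and 0.19 for Postn, the Postn interaction was 0.17 (adjusted p = 0.0424), usage of Postn-204 in undifferentiated cells was −0.0052, and 6639 genes were called for BIGH3 in differentiated cells against 6687.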
